A study of Homo sapiens with 6 samples.

Results

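The S100 genes encode small calcium-binding proteins, and 10 of them were followed here in MDA-MB-231 cells exposed to selamectin: S100A2, S100A3, S100A4, S100A6, S100A10, S100A11, S100A13, S100A14, S100A16 and S100P. They were taken from the deposited table by name, as transcript clusters (the probe group that the array assigns to 1 locus) annotated with exactly 1 symbol. Each of the 10 symbols had 1 such cluster, so they make up 10 of the 18417 named genes. MDA-MB-231 is a long-established line from a human breast cancer that lacks hormone receptors and looks mesenchymal, and every array comes from this 1 line, kept in DMEM with fetal bovine serum. The 3 selamectin arrays hold RNA of cultures given 1 µM selamectin, a macrocyclic lactone of the avermectin family, for 24 h. The 3 control arrays are titled untreated, while the treatment protocol speaks of vehicle, so what the controls received is not settled. The series title presents avermectins as inhibitors of SIN3, a corepressor scaffold that carries histone deacetylases to promoters. All values are log2 expression values, so a difference of 1 is a doubling. Brightness differs between probe sets for reasons other than abundance, so the level of 1 gene is not set against that of another. Quartiles and medians over all genes serve only to mark dim or bright signals. No detection calls were used, so it is not known which clusters stood above background.

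S100 proteins mostly act as dimers, each subunit carrying a pair of EF-hands, the helix-loop-helix fold that holds calcium. Calcium binding opens a surface through which an S100 protein grips its partners, among them annexins, myosin and membrane channels. Some are also released and act on receptors such as the one for advanced glycation end products, and in breast cancer cells several of them are studied for their links to motility and invasion. Most of the genes lie in clusters on the long arm of chromosome 1, while S100P lies on chromosome 4.

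Of the 10 genes, 3 rose and 1 fell with selamectin. S100A16, S100A3 and S100A11 rose, by 1.40-fold, 1.34-fold and 1.19-fold, and S100P was 1.41-fold lower. The other genes did not pass the test, and among them S100A4 stood 0.36 log2 units higher. The test was limma fitted to all 18417 genes, with a threshold of 0.05 on the Benjamini-Hochberg adjusted p. Of all genes tested, 4.69% passed that threshold (2.41% higher and 2.28% lower), against 4 of the 10 S100 genes. The median absolute log2 change was 0.19 over the 10 genes and 0.10 over all genes, and the median signed change was 0.11 against 0.04. The treated and untreated arrays did not overlap for 6 of the 10 genes, against 25.3% of all genes: the 3 selamectin arrays lay wholly above for 5 (16.0% of all genes) and wholly below for 1 (9.30%). At an unadjusted p under 0.05 there were 5 of the 10 genes, against 19.9% of all genes. In a fit of genes above the median level, 939 of 9209 passed, and 4 of the 7 S100 genes tested there. The 10 genes were chosen with results of these data known, so these shares are a description and carry no test.

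These calls rest on few arrays. When all 33297 clusters of the table entered the fit, 0 of the 10 genes passed in limma, although 5 had an unadjusted p under 0.05. When untreated array 1 was dropped, 0 of the 10 passed in limma, and 5 had an unadjusted p under 0.05. Dropping untreated array 2 left 3 calls and dropping untreated array 3 left 1. Dropping selamectin array 1, 2 or 3 left 2, 1 or 4 calls. Over all genes, where 864 passed with all arrays, the same fits called 176, 664 and 254 without untreated arrays 1, 2 and 3, and 597, 234 and 1149 without selamectin arrays 1, 2 and 3.

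**Figure D1:**
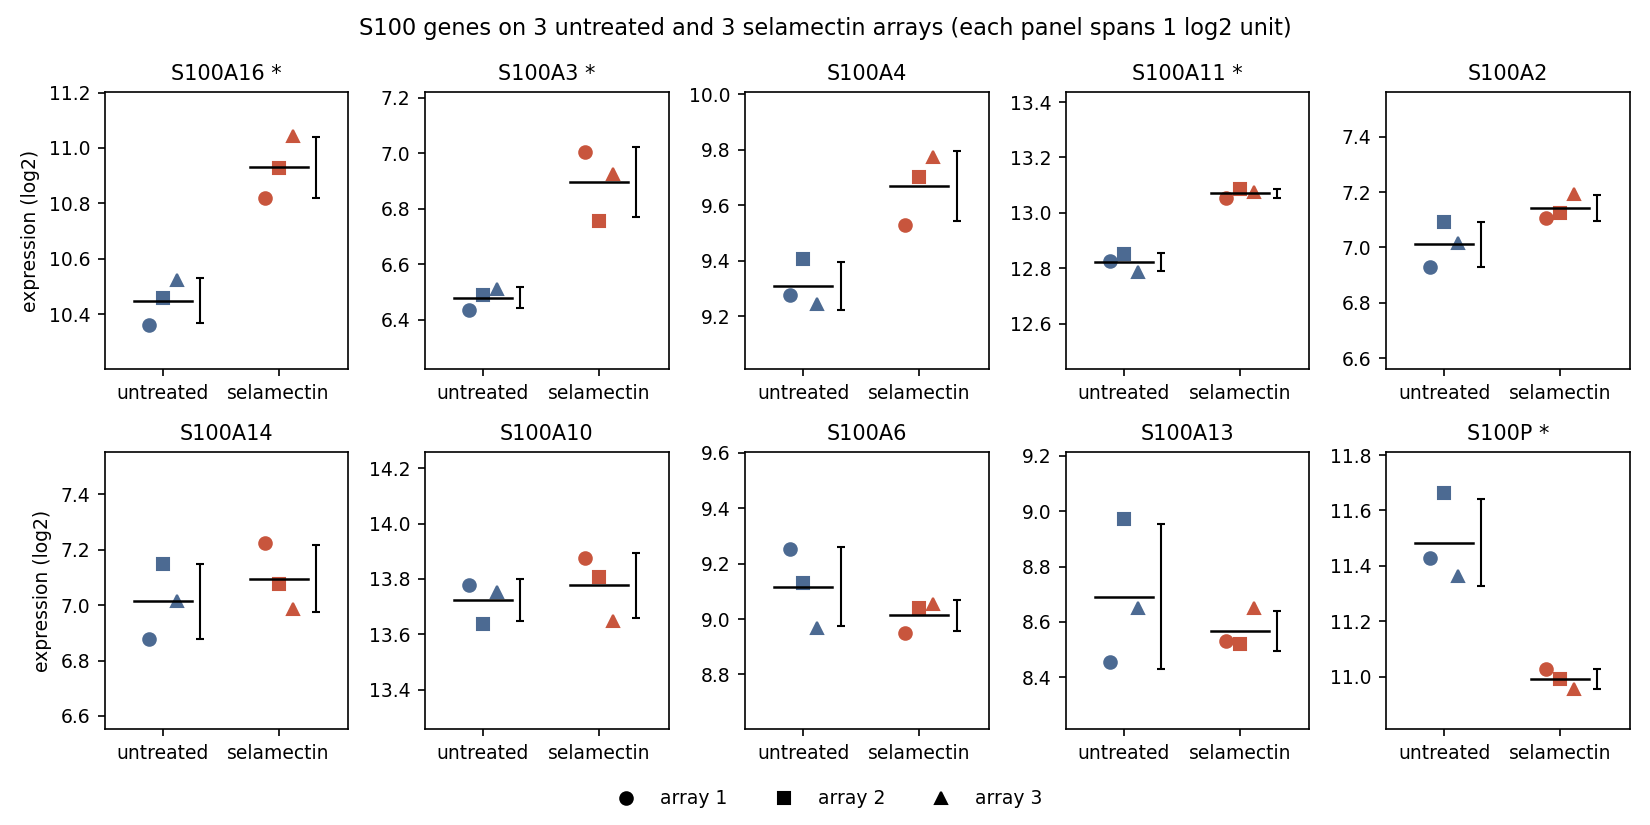
Log2 expression (y axis) of the 10 S100 genes on 3 untreated (blue) and 3 selamectin (red) arrays; each panel spans 1 log2 unit, symbols mark the array number, horizontal lines are group means, vertical bars are SD (n = 3) and asterisks mark the 4 genes past the adjusted p of 0.05. The groups do not overlap for S100A3, S100A16, S100A11, S100A4, S100A2 and S100P; in S100A2 the gap is only 0.01.

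The stretches of 250 bases before the transcription starts of the 4 genes that passed are shown because these are the regions at which a corepressor such as SIN3 is known to act. They come from RefSeq (GRCh38.p14), run 5′ to 3′ on the gene's strand and end 1 base before the annotated start; S100A16 has 2 annotated starts. Capitals mark every match, on either strand, to 6 short motifs: the TATA box TATAAA, the GC box GGGCGG, the E-box CACGTG bound by MXD and MAX, the CACCC box of KLF factors, the TGIF motif TGTCA and the AP-1 site TGANTCA. The E-box, CACCC box and TGIF motif were included because MXD, KLF and TGIF proteins are known to bring SIN3 to DNA. Matches may overlap each other.
S100A3 (chr1:153549259-153549508, minus strand): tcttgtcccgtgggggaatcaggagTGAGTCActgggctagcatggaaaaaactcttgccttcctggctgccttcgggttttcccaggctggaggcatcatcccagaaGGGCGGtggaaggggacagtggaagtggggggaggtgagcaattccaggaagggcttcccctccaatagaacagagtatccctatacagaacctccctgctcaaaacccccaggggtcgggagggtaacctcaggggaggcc
S100A16, first start (chr1:153613138-153613387, minus strand): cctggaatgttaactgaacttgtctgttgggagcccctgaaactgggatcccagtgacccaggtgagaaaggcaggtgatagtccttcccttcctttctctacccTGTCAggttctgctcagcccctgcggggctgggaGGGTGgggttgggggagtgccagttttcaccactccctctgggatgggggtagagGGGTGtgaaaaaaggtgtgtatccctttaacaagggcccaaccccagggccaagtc
S100A16, second start (chr1:153609356-153609605, minus strand): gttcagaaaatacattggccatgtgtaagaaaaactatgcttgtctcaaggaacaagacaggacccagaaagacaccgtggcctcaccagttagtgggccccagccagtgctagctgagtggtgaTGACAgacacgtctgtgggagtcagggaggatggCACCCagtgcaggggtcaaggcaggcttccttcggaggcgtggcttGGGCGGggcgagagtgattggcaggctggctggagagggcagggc
S100A11 (chr1:152037005-152037254, minus strand): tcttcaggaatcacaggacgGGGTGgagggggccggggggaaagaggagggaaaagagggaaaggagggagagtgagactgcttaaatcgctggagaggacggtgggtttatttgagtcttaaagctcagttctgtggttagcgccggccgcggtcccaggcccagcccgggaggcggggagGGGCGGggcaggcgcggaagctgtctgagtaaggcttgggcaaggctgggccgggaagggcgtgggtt
S100P (chr4:6693628-6693877, plus strand): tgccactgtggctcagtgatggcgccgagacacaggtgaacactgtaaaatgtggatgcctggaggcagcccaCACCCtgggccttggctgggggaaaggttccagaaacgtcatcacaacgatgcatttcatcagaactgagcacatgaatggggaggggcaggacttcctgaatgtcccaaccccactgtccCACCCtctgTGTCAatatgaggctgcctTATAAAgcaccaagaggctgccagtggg
S100P, which fell, had a TATA box that began 28 bases before the start, together with 2 CACCC boxes and 1 TGIF motif. None of the windows of the 3 genes that rose held a TATA box, but that of S100A4, which stood 0.36 higher without passing, had 1. A link between motifs and direction of change was not tested. Like that of S100P, the first window of S100A16, which rose, held 2 CACCC boxes and 1 TGIF motif. Its second window held a GC box, a CACCC box and a TGIF motif. S100A3 held a GC box and an AP-1 site, and S100A11 a GC box and a CACCC box. All 10 genes matched the RefSeq table, with 14 windows in all. A CACCC box was found in 12 of the 14 windows and in 54.7% of the table's 35116 entries, each read over the same 250 bases before its start, a GC box in 6 and 42.6%, and a TGIF motif in 6 and 34.0%. The TATA box occurred in 3 of 14 windows (S100A4, S100P and 1 of the 3 windows of S100A13) and 10.7% of the table, the AP-1 site in 2 and 6.57%, and the E-box in 0 and 6.34%. A match is a run of letters and not a measured binding site.

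S100A16 had the largest positive change of the 10 genes. It encodes a widely expressed S100 protein that has been studied in adipocytes and in several carcinomas. Its cluster (7920291, Entrez gene 140576) read 10.36, 10.46 and 10.52 on untreated arrays 1 to 3 and 10.82, 10.93 and 11.04 on selamectin arrays 1 to 3. All treated arrays were above all untreated ones, with a gap of 0.30. The means were 10.45 ± 0.08 and 10.93 ± 0.11 (SD, n = 3), which is a log2 change of 0.48 ± 0.09 (SE; 95% interval 0.28 to 0.68; limma adjusted p = 0.017). The call was lost without untreated array 1 (adjusted p = 0.081 in limma), untreated array 3 (0.055) or selamectin array 2 (0.071), while the log2 change stayed between 0.43 and 0.54 over the 6 fits that left out 1 array.

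S100A3 encodes a cysteine-rich, zinc-binding protein best known from the cuticle of hair. Its cluster (7920278, Entrez gene 6274) gave 6.44, 6.49 and 6.51 on the untreated arrays and 7.01, 6.76 and 6.93 with selamectin. The untreated arrays lay close together and the treated ones spread more widely, without overlap. The untreated level lay near the lower quartile of all genes (6.45), and whether it stood above background is not known. The log2 change was 0.42 ± 0.09 (SE), from 6.48 ± 0.04 to 6.90 ± 0.13 (SD, n = 3; 95% interval 0.23 to 0.61; limma adjusted p = 0.022). It no longer passed without untreated array 1 (adjusted p = 0.086 in limma), untreated array 3 (0.077) or selamectin array 1 (0.074).

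S100A11, also called calgizzarin, is a partner of annexin A1 and takes part in membrane repair and growth control. Its cluster (7920128, Entrez gene 6282) read 12.83, 12.85 and 12.79 untreated and 13.05, 13.09 and 13.08 with selamectin. The change was small and even: each treated array stood between 0.23 and 0.26 above the untreated mean. The means were 12.82 ± 0.03 and 13.07 ± 0.02 (SD, n = 3), and the log2 change was 0.25 ± 0.06 (SE; 95% interval 0.11 to 0.39; limma adjusted p = 0.047). The call was lost in 10 of 17 other settings. In limma the adjusted p was 0.12 when untreated array 1 was dropped, 0.066 for untreated array 2, 0.19 for untreated array 3, 0.10 for selamectin array 1 and 0.17 for selamectin array 2. It was also lost with a second quantile normalization (0.078), with eBayes run without its trend (0.074), with every cluster of the table tested (0.11) and with a linear model without moderation (0.13).

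S100P, first found in placenta, binds ezrin and the receptor for advanced glycation end products, and it was the member that fell. Its cluster (8093950, Entrez gene 6286) read 11.43, 11.66 and 11.36 untreated and 11.03, 10.99 and 10.96 with selamectin. The treated arrays agreed within 0.07 of each other and lay 0.33 or more below every untreated array. The means were 11.48 ± 0.16 and 10.99 ± 0.04 (SD, n = 3), and the log2 change was -0.49 ± 0.09 (SE; 95% interval -0.70 to -0.29; limma adjusted p = 0.016). The call was lost without untreated array 1 (adjusted p = 0.058 in limma) or selamectin array 2 (0.068).

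**Figure D2:**
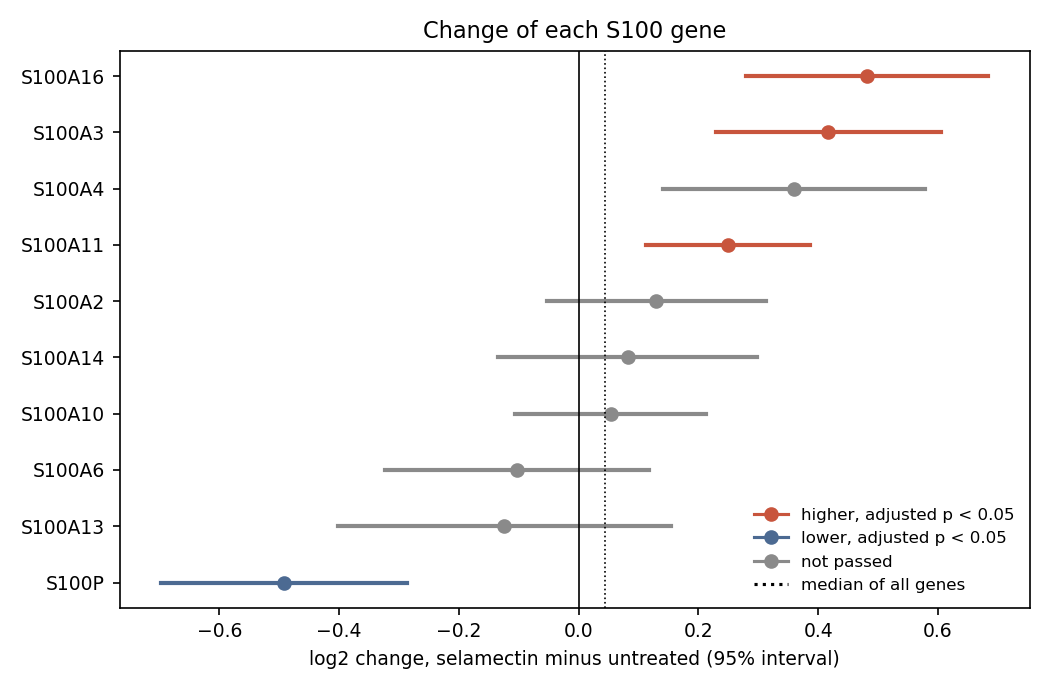
Log2 change, selamectin minus untreated (x axis), of each S100 gene (rows) with its 95% interval from limma; red and blue mark adjusted p under 0.05, grey the genes that did not pass, and the dotted line is the median of all genes (0.04). S100A16 (0.48), S100A3 (0.42) and S100A11 (0.25) lie to the right with intervals above 0, and S100P (-0.49) lies to the left with its interval below 0.

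S100A4, or metastasin, binds non-muscle myosin IIA and is the family member most often tied to metastasis and the mesenchymal state. It read 9.27, 9.41 and 9.24 on the untreated arrays and 9.53, 9.70 and 9.77 with selamectin. The groups did not overlap, with a gap of 0.12, but the gene did not pass the test. The means were 9.31 ± 0.09 and 9.67 ± 0.13 (SD, n = 3), and the log2 change was 0.36 ± 0.10 (SE; 95% interval 0.14 to 0.58; limma adjusted p = 0.065). It passed in limma when genes below the median level were left out (adjusted p = 0.044) and with array weights (0.0078). These settings called 939 of 9209 and 3286 of 18417 genes, against 4.69% in the main fit. Under array weights, untreated array 3 had a weight of 5.11 against 0.45 to 1.22 for the other arrays. The adjusted p of S100A4 in limma was 0.051 or more in each remaining setting, with a maximum of 0.23. S100A4 lies next to S100A3 on the chromosome, and its RefSeq gene model overlaps that of S100A5, whose log2 change was 0.11 (limma adjusted p = 0.56). Whether probes are shared was not tested.

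S100A2, a mostly nuclear protein of basal epithelium, and S100A14, an epithelial member, showed small differences. S100A2 read 6.93, 7.09 and 7.01 untreated and 7.10, 7.12 and 7.19 with selamectin, groups that were apart by only 0.01. Its log2 change was 0.13 (95% interval -0.05 to 0.31, limma adjusted p = 0.42). S100A14 read 6.88, 7.15 and 7.01 untreated and 7.22, 7.08 and 6.99 treated, and the groups overlapped. Its log2 change of 0.08 had an interval from -0.13 to 0.30 (limma adjusted p = 0.68). The intervals do not exclude a rise of up to 0.31 for S100A2 or 0.30 for S100A14.

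S100A10 is the family member that binds no calcium and is held in an active shape, in a complex with annexin A2 that captures plasminogen and carries channels to the cell surface. It read 13.78, 13.64 and 13.75 untreated and 13.88, 13.81 and 13.65 with selamectin, and the ranges overlapped. The log2 change was 0.05 (95% interval -0.11 to 0.21, limma adjusted p = 0.72).

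S100A6, or calcyclin, is a cell cycle linked member, and S100A13 helps to release FGF1 and interleukin 1 alpha from stressed cells. S100A6 read 9.25, 9.13 and 8.97 untreated and 8.95, 9.04 and 9.05 with selamectin, for a log2 change of -0.10 (95% interval -0.32 to 0.12, limma adjusted p = 0.61). S100A13 had the widest spread of the 10 genes, with 8.45, 8.97 and 8.65 untreated and 8.53, 8.52 and 8.65 treated. Its untreated SD was 0.26, its log2 change -0.12 (interval -0.40 to 0.15, limma adjusted p = 0.62), and without untreated array 2 the change was 0.02. Both genes overlapped between the groups. The S100A13 gene model overlaps that of S100A1, which lies on the opposite strand and read 6.12 untreated and 6.34 treated (log2 change 0.22, limma adjusted p = 0.29).

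The treated arrays did not order the genes alike. Selamectin array 3 held the highest treated value of S100A2, S100A4, S100A6, S100A13 and S100A16 and the lowest of S100A10, S100A14 and S100P, while S100A3 was highest on selamectin array 1 and S100A11 on selamectin array 2. The within-group SD, pooled over both groups, ranged from 0.03 for S100A11 to 0.19 for S100A13, with a median of 0.10 over the 10 genes and 0.11 over all genes.

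**Figure D3:**
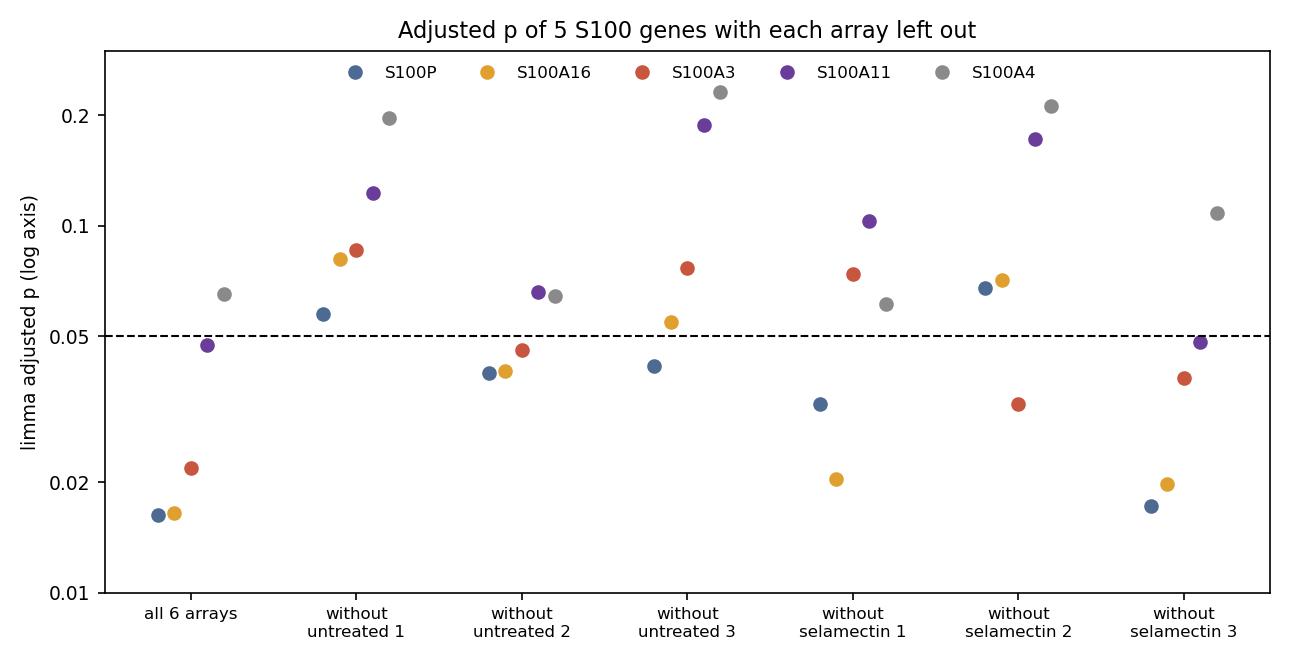
Limma adjusted p (log y axis) of the 5 S100 genes with the smallest p (S100P, S100A16, S100A3, S100A11 and S100A4) with all 6 arrays and with each array left out in turn (x axis); the dashed line is the threshold of 0.05. No gene stays below the line in every column: S100P rises above it without untreated array 1 (0.058) and selamectin array 2 (0.068), and S100A11 falls below it only with all arrays (0.047) and without selamectin array 3 (0.048).

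The S100 genes of chromosome 1 were then read in gene order, from RefSeq (GRCh38.p14, used here for order). The genes that passed were not neighbours. S100A11 lies beside S100A10, whose change of 0.05 did not pass, and the skin and myeloid members that come next did not pass either: the alarmins S100A8 and S100A9 changed by 0.09 and 0.06, S100A12 by 0.02 and S100A7, or psoriasin, by -0.03. Further along, S100A4 (0.36), S100A3 (0.42), S100A2 (0.13), S100A16 (0.48) and S100A14 (0.08) follow each other, with only S100A3 and S100A16 past the threshold. None of 12 further genes with S100 names, among them S100PBP, which encodes a binding protein of S100P, passed in limma, where 4.69% of all genes did. At an unadjusted p under 0.05 there were 0 of the 12, against 19.9% of all genes. Their median log2 change was 0.01. The mean log2 value of the 12 was 6.02 to 6.09 on untreated and 6.02 to 6.17 on selamectin arrays. That is below the lower quartile of all genes (6.45), although S100PBP read 10.00 untreated. RMA compresses changes of dim genes, and whether this bears on the list was not tested. The lack of calls is not read as a result about these genes. Of the 12, S100A1 (0.22) and S100A8 (0.09) had the smallest p (limma adjusted p = 0.29 and 0.53). With array weights S100A1 passed (adjusted p = 0.029 in limma), a setting in which 3286 of all 18417 genes did. Of 6 genes that join an S100 domain to a long repeat, such as filaggrin, 0 passed in limma, against 4.69% of all genes. At an unadjusted p under 0.05 there were 0 of the 6, against 19.9% of all genes. This list was dim as well, with a mean of 6.05 to 6.18 untreated and 6.16 to 6.20 with selamectin. FLG2 and TCHH stood at 0.10 and 0.09.

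**Figure D4:**
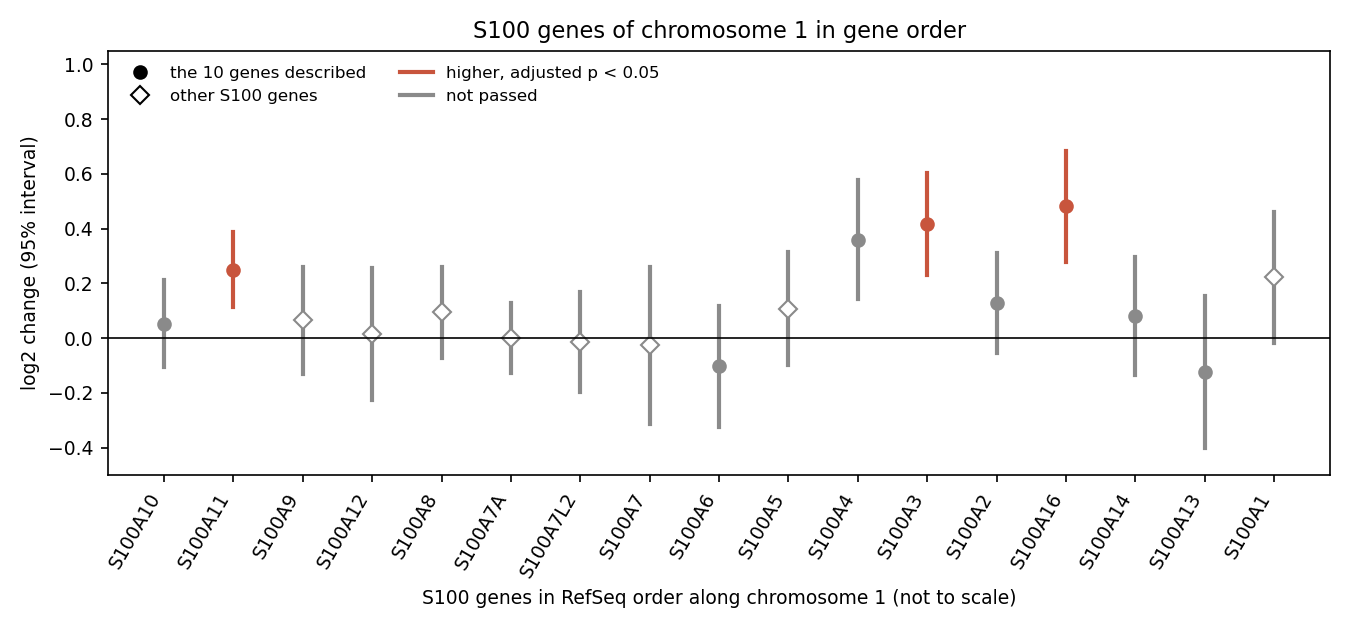
Log2 change with 95% interval (y axis) of the S100 genes of chromosome 1 in RefSeq order (x axis, not to scale); circles are the genes described here, open diamonds other S100 genes, red marks adjusted p under 0.05. S100A11, S100A3 and S100A16 are the red points, and S100A4 (0.36), next to S100A3, is grey.

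Partners of S100 proteins changed in both directions. Of 22 binding partners measured, 1 rose and 2 fell past the threshold (13.6%, against 4.69% of all genes), with a median log2 change of 0.03. All 3 are known partners of S100A10 and the annexin A2 complex. Other listed partners of that complex did not pass. AHNAK stood at -0.29, TRPV5 at 0.04, TRPV6 at 0.07 and DLC1 at 0.02 (limma adjusted p = 0.27, 0.84, 0.55 and 0.90). HLTF, a chromatin remodelling factor that this complex binds in the nucleus, read 11.87, 11.66 and 11.84 untreated and 11.29, 11.18 and 11.12 with selamectin. It was 1.51-fold lower, with no overlap (log2 change -0.60, interval -0.79 to -0.40, limma adjusted p = 0.0061). KCNK3, the TASK-1 potassium channel, rose by 0.54, from 8.38 ± 0.08 to 8.92 ± 0.06 (SD, n = 3, limma adjusted p = 0.010). ASIC1, an acid-sensing sodium channel, was 1.77-fold lower, from 9.98 ± 0.22 to 9.15 ± 0.34 (limma adjusted p = 0.019). HLTF passed whichever array was left out. KCNK3 did not pass without untreated array 1 (adjusted p = 0.053 in limma), nor ASIC1 without untreated array 2 (0.076) or 3 (0.064). The mean log2 value of the partner list was 9.83 to 9.88 untreated, above the median of all genes (8.24). The receptor, plasminogen and EF-hand lists below lay above that median too. In a fit of genes above the median level only, 939 of 9209 passed. The lists were chosen with results of these data known, so their shares carry no test.

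The other partners did not pass. ANXA2, the annexin of the S100A10 complex, stood at 0.15 (95% interval -0.01 to 0.30, limma adjusted p = 0.29) and ANXA1, the annexin of S100A11, at 0.02 (-0.13 to 0.17, adjusted p = 0.91 in limma). For S100A4, the myosin heavy chains MYH9 and MYH10 stood at -0.01 and -0.28 (limma adjusted p = 0.96 and 0.096). For S100A6, the binding protein CACYBP stood at 0.24 (limma adjusted p = 0.19) and SUGT1 at 0.09. FGF1 and IL1A, the cargo of S100A13, stood at 0.09 and 0.04. CAPZA1, an actin capping subunit, stood at 0.27 (limma adjusted p = 0.13). EZR, the ezrin partner of S100P, was not analysed here.

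Of 6 receptors reported for S100 proteins, 1 fell and none rose (16.7% called, against 4.69% of all genes). ALCAM, an adhesion molecule reported to bind S100B, went from 10.83 ± 0.10 to 10.35 ± 0.20 (SD, n = 3; log2 change -0.48, limma adjusted p = 0.034), a call that was lost without any 1 of the 3 untreated arrays or selamectin array 2 (adjusted p up to 0.14). AGER, the receptor for advanced glycation end products, stood at 0.14 (limma adjusted p = 0.39) and TLR4 at 0.04 (adjusted p = 0.85 in limma).

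Among 7 genes of the plasminogen system, to which S100A10 belongs as a surface docking site, 1 rose and 1 fell (28.6%, against 4.69% of all genes). PLGRKT, a plasminogen receptor of the membrane, read 7.84 ± 0.15 untreated and 7.20 ± 0.10 with selamectin (SD, n = 3). It was 1.56-fold lower, with no overlap between the groups (limma adjusted p = 0.0084), and passed whichever array was left out. PLGRKT did not pass with every cluster of the table tested, nor in a linear model without moderation, where no gene did. ENO1, a glycolytic enzyme that also binds plasminogen at the surface, rose by 0.23 (limma adjusted p = 0.040), and kept its call only when selamectin array 3 was the array dropped (up to 0.15 otherwise). PLAUR, the urokinase receptor, stood at 0.34 (limma adjusted p = 0.16) and SERPINE2, a protease inhibitor, at 0.19 (0.27).

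Other EF-hand proteins, outside the S100 family, held more falls than rises. Of 31 measured, 5 fell and 1 rose (19.4%, against 4.69% of all genes), with a median log2 change of -0.01. Their mean log2 value was 10.39 to 10.42 untreated, against a median of 8.24 over all genes. In the fit of genes above the median level, 939 of 9209 passed. GCA, or grancalcin, fell from 8.45 ± 0.17 to 7.58 ± 0.16 (SD, n = 3), which is 1.83-fold (limma adjusted p = 0.0045). RCN3, a calcium-binding chaperone of the endoplasmic reticulum, was 1.58-fold lower (adjusted p = 0.0045 in limma), and NUCB2, the precursor of nesfatin, 1.55-fold lower (0.013). The swiprosins EFHD1 and EFHD2, which link calcium to mitochondria and actin, stood at -0.41 and -0.37 (limma adjusted p = 0.027 and 0.029). CAPNS1, the small subunit of calpains, rose by 0.42 (limma adjusted p = 0.021). GCA and RCN3 passed whichever array was left out. Each of the other calls was lost without untreated array 1 or selamectin array 2; CAPNS1, EFHD1 and EFHD2 also lost theirs without untreated array 3, EFHD1 and EFHD2 without selamectin array 1, and EFHD2 without untreated array 2 (adjusted p up to 0.068 for NUCB2, 0.10 for CAPNS1, 0.12 for EFHD1 and 0.12 for EFHD2). STIM1, the calcium sensor of the endoplasmic reticulum, stood at -0.35 (limma adjusted p = 0.066) and CALU, calumenin, at -0.25 (0.074).

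**Figure D5:**
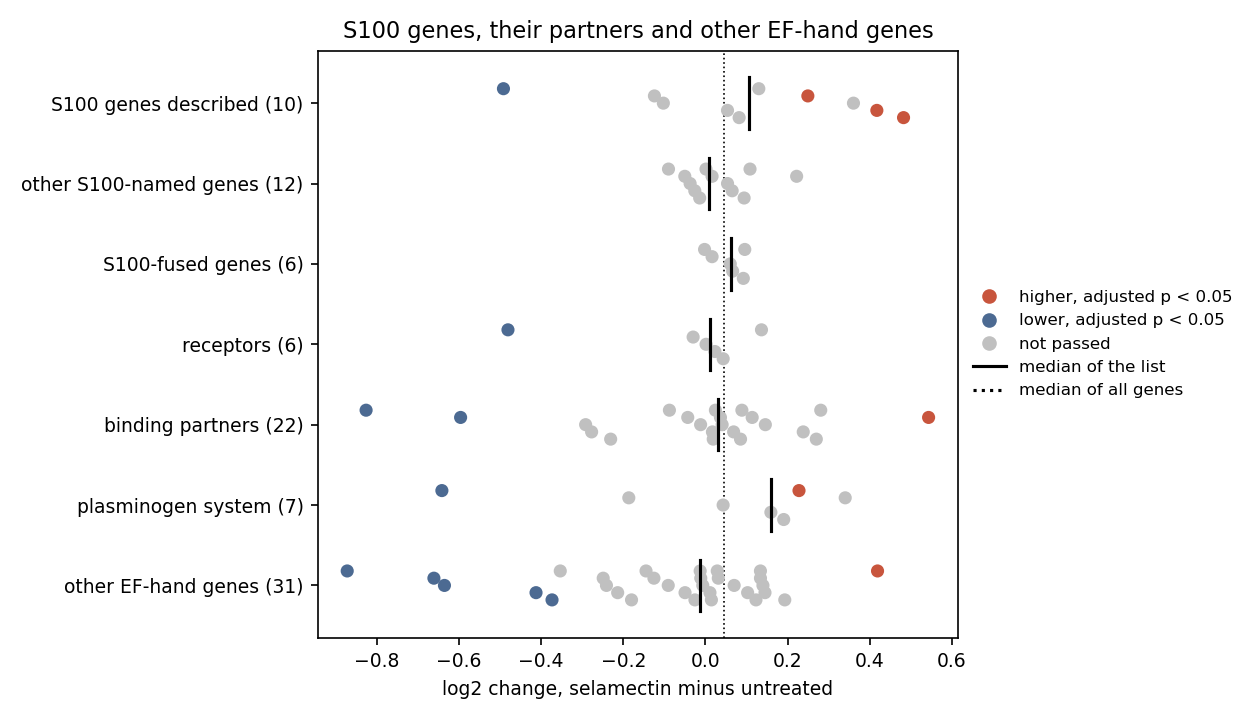
Log2 change (x axis) of every measured gene in 7 lists (rows, number of genes in brackets; vertical scatter within a row only separates points); red is higher and blue lower at an adjusted p under 0.05, black bars are list medians and the dotted line is the median of all genes (0.04). The 12 other genes with S100 names (S100PBP included) hold no coloured point and lie between -0.09 and 0.22, while 5 of the 6 coloured points among other EF-hand genes lie to the left. The mean log2 value of those 12 genes was below the lower quartile of all genes (6.45).

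Markers of the labelled line and of other cells are given as values, without a detection threshold. VIM, the mesenchymal filament, read 12.67 ± 0.05 untreated and 12.90 ± 0.07 treated (SD, n = 3), and the simple epithelial keratins KRT8 and KRT18 read 13.71 and 13.41 untreated. Among the luminal markers ESR1, CDH1 and EPCAM read 6.97, 6.27 and 6.24 untreated, and the luminal factor FOXA1 read 9.76. Of 8 markers of the line, 1 passed (4.69% of all genes did), CD44 at 0.42 (limma adjusted p = 0.020), a call lost without untreated array 1 or 3 or selamectin array 1 or 2 (up to 0.087). At an unadjusted p under 0.05 in limma, 4 of the 8 were higher and 1 was lower, EGFR at -0.32 (adjusted p = 0.053), against 19.9% of all genes. None of 9 luminal markers passed, where 2 had an unadjusted p under 0.05 in limma (CDH1 at -0.26 and EPCAM at -0.27). Of 7 leukocyte and 5 endothelial markers none passed, against 4.69% of all genes. Before adjustment, the limma p was below 0.05 for 0 leukocyte and 2 endothelial markers, against 19.9% of all genes. These 2 went in opposite directions, VWF at 0.18 and CDH5 at -0.59. The mean log2 value of the leukocyte markers was 5.83 to 5.98 on untreated and 5.91 to 5.97 on selamectin arrays, and that of the endothelial markers 6.81 to 6.99 and 6.81 to 6.95. CDH5, an endothelial cadherin, was read at 9.52 and 8.93 (limma adjusted p = 0.067).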

How the data were processed

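RNA of 3 untreated and 3 selamectin cultures was labelled with biotin and hybridised to Affymetrix whole-transcript arrays. Affymetrix Expression Console, RMA and Transcriptome Analysis Console were used, per the submitters' processing notes, which give no version or role. The values that the authors deposited are taken as the log2 expression values RMA gives, which no header states. RMA as commonly run equalises the arrays, so a shift of all genes in 1 group is lost, and it compresses changes of dim genes. Array medians lay between 7.47 and 7.51. No build is named for the arrays' design.

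Arrays were grouped by title. Per the labels, the replicates are independent, with no account of how cultures were separated; if they were not, p-values measure technical spread only. Correlations of same-numbered deviations were -0.01, 0.24 and -0.14, which does not show pairing by replicate number. Deviations from a mean of 3 arrays depend on each other, so these values cannot decide whether the arrays were paired. Across numbers, untreated array 3 and selamectin array 1 had the highest correlation, 0.30, whose source was not tested. Scanner files, scan dates and batches were not analysed here.

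Of 33297 clusters, 19460 had 1 symbol; the brightest cluster per symbol gave 18417 genes. The test was limma 3.58.1 under R 4.3.3, as lmFit and eBayes with trend, two-sided, selamectin minus untreated, with Benjamini-Hochberg adjustment over all genes. Intervals are 95%, not adjusted for the number of genes. The number of arrays limits the precision; the median SE was 0.094. The fit was also run on simulated data with independent noise and no array effects, which cannot show how well the calls hold for these arrays. The 10 genes, the lists, the motifs and the tests were chosen with earlier results of these data known. Named from each list were the genes past the threshold, the next 2 by p, and known partners of the 10 genes picked after values were seen.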

Additional observations from a re-analysis of the deposited data

How the results depend on the processing

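Over all genes, limma called 864; the number was 3286 with array weights (untreated array 3 weighing 5.11), 249 with all clusters in the fit, and 0 in a linear model without moderation, where 2964 genes had an unadjusted p under 0.05. Leaving out 1 array gave between 176 (untreated array 1) and 1149 (selamectin array 3). Of the 10 S100 genes, 4 were called, and 5 with array weights, S100A4 included. The number was 0 with all clusters in the fit, where more features share the adjustment, and 0 in the linear model without moderation; in both, 5 genes had an unadjusted p under 0.05. It ranged from 0 to 4 over the fits without 1 array. With a replicate block 3 of the 10 and 650 of all genes passed; S100A11 was the S100 gene lost (adjusted p = 0.083), and ENO1, EFHD1 and EFHD2 lost their calls as well. Only selamectin array 2 correlated best with the untreated array of its own number, and whether array numbers pair the samples is not settled. Second quantile normalization, median centring, filters on low genes, a fit without trend, a robust fit and averaged clusters gave 3 or 4 calls; S100A2, S100A3 and S100A14 lay below the median level and were not tested under that filter. The signs of S100A16, S100A3, S100A11, S100A4 and S100P held in every setting run. S100A13 reversed without untreated array 2, ranging from -0.24 to 0.015 over the fits without 1 array, and TLR4 without untreated array 2 or selamectin array 1, ranging from -0.055 to 0.12; the cause was not tested. Array signal relative to background was not analysed here, so dim genes may be less certain than their errors show.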
